A study of Mus musculus with 18 samples.

Results

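The miRNAs described here are mmu-miR-99a-5p, mmu-miR-100-5p, mmu-miR-125b-5p, mmu-miR-125b-1-3p and mmu-miR-125b-2-3p, mature products of 2 mouse host loci that each carry a miR-99 or miR-100 hairpin and a miR-125b hairpin. They are written without the mouse prefix from here on. They were chosen by name, and all 5 were found among the 758 mature miRNAs listed in the deposited expression tables. A miRNA was tested where 3 or more libraries reached 5 RPM, which holds for all 5 and for 351 miRNAs in all. RPM is the read count scaled to a fixed library total, and every one of these miRNAs is 22 bases long, so they do not differ in length. How evenly different sequences were captured was not tested, so levels of different miRNAs are compared as RPM only.

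The samples were livers of wild-type C57BL/6J mice kept on their diets from 5 weeks of age and sampled at 62 weeks. The 6 groups have 3 libraries each: LF and HF without an intervention, LF+CR and HF+CR, and LF+Ex and HF+Ex. No label explains these letters; they are taken to stand for diets low (LF) or high (HF) in fat, restricted calories (CR) and exercise (Ex). The labels state neither the sex of the mice nor whether each library came from its own animal, so p-values measure only the spread between these libraries, which may be technical.

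A miRNA is a small RNA cut from a hairpin transcript; its bases 2 to 8, the seed, do most of the pairing with target messenger RNAs. The miR-99 and miR-100 family is an old animal family known for repressing Mtor, the kinase that links nutrients and insulin signalling to growth. miR-125b, the mammalian counterpart of worm lin-4, is known for roles in cell death, blood cell development and the arrest of growth in liver tumours. In vertebrate genomes the 2 families sit together with a let-7 hairpin in host transcripts, an arrangement older than the vertebrates.

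The sequences below are shown because they decide which reads can be told apart; the seed is in capitals, bases run 5′ to 3′, and all come from RefSeq's annotation of GRCm38.p6.
miR-99a-5p: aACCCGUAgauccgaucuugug
miR-100-5p: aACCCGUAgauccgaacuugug
miR-125b-5p: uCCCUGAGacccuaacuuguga
miR-125b-1-3p: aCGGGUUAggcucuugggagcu
miR-125b-2-3p: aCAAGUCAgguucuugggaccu
miR-99a-5p and miR-100-5p share the seed ACCCGUA and are identical at 21 of 22 bases. Counted from 1 at the 5′ end, the single difference from miR-99a-5p to miR-100-5p is U16A. How the authors assigned reads that match more than 1 miRNA is not given in the sources used here, so the split between this pair is uncertain to the extent that such reads occurred. miR-125b-5p is made in the same form by both loci, while the 3p arms tell the loci apart: from miR-125b-1-3p to miR-125b-2-3p they differ by G3A, G4A, U7C, C11U and G20C, and they have different seeds.

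Both loci lie on plus strands and are intronic in long noncoding RNA genes, by GENCODE M21 on GRCm38. On chromosome 16, Mir99a at chr16:77598936-77599000 lies in an intron of Mir99ahg, with Mirlet7c-1 starting 721 bases and Mir125b-2 starting 47337 bases further on. RefSeq ends Mir99ahg at base 77558428, short of these hairpins, so their place in this host rests on GENCODE. An exon of C130023A14Rik, a gene on the same strand that starts at base 77646340, overlaps the end of Mir125b-2. On chromosome 9, Mir100 at chr9:41531425-41531504 lies in an intron of 3110039I08Rik, which RefSeq names Mir100hg, with Mirlet7a-2 starting 5291 bases and Mir125b-1 starting 50501 bases further on. An exon of the antisense lincRNA gene Gm48742 covers Mir100, and an exon of the sense-intronic gene Gm28119 covers Mir125b-1. The 3 hairpins in the RefSeq table are shown to place the arms, which are in capitals.
Mir99a: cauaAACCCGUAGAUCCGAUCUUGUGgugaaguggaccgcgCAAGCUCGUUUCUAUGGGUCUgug
Mir100: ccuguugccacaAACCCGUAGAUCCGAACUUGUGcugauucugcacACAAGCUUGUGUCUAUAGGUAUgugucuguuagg
Mir125b-1: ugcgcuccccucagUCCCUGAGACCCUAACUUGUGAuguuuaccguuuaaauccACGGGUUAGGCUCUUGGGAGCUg
The listed products of these hairpins are unequal in level: miR-99a-3p had a mean of 47.4 RPM over the 18 libraries and miR-100-3p 1.20 RPM, far under their 5p arms.

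The libraries held 2379753 to 10481218 listed reads, as implied by the steps in which RPM values come. The tissue label fits its defining marker: miR-122-5p, the miRNA that hepatocytes make in largest amount, took a mean of 25.5% of listed RPM. Libraries LF 1 and HF+CR 3 stand apart by the summed level of all 5 epithelial miRNAs, at 5663 and 7989 RPM against 980 to 3770 RPM in the other libraries. They are also the highest in the sum of the 6 leukocyte miRNAs, at 7740 and 8987 RPM against 2170 to 7466 RPM. LF+CR 1 and HF+CR 1 had the most RPM of pancreatic miRNAs, at 348 and 138 RPM against 3.57 to 41.2 RPM elsewhere. HF+CR 2 and LF 2 had the most RPM of neuronal miRNAs, at 266 and 105 RPM against 7.92 to 36.3 RPM elsewhere. Entries that resemble fragments of other RNAs, kept as a sign of RNA quality, summed to 406 RPM in HF+Ex 1, 115 to 309 RPM across HF+CR, and 119 RPM for HF 2, all on the HF diet, and to 16.5 to 40.99 RPM in the other 13 libraries. Most of this sum is 1 entry, miR-690, with a mean of 74.8 RPM and a highest value of 387 RPM. Each other listed entry had a mean of 3.56 RPM or less. Fits were repeated without LF 1 and HF+CR 3, without LF+CR 1 and HF+CR 1, and without each library in turn. No fit left out all libraries high in fragment-like entries, or both of those high in neuronal miRNAs. The part of other cells or of RNA quality in the results was not tested. In whole liver, fewer cells of a type and less RNA per cell cannot be told apart.

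miR-125b-5p and miR-99a-5p were at nearly the same level, with means over the 18 libraries of 6149.6 and 6148.5 RPM, ranks 30 and 31 of 758. miR-100-5p had a mean of 564 RPM and rank 82. The 3p arms were lower still: miR-125b-2-3p had a mean of 54.7 RPM and rank 181, and miR-125b-1-3p 4.86 RPM and rank 321. The implied reads per library ranged from 15925 to 62317 for miR-99a-5p and from 20427 to 68960 for miR-125b-5p, but only from 13 to 57 for miR-125b-1-3p, whose values carry the most counting error. The highest library exceeded the lowest 1.64-fold for miR-99a-5p, 1.79-fold for miR-125b-2-3p, 2.43-fold for miR-125b-5p, 2.67-fold for miR-100-5p and 6.23-fold for miR-125b-1-3p. Summed, the 5 took 0.990% to 1.94% of listed RPM, with a median of 1.32%. The sum was 0.990% to 1.12% in LF+CR and 1.03% to 1.15% in LF+Ex, below the 1.30% to 1.94% of HF+CR and the 1.48% to 1.61% of HF+Ex. Without an intervention the diets overlapped, at 1.19% to 1.55% in LF and 1.32% to 1.47% in HF.

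**Figure D1:**
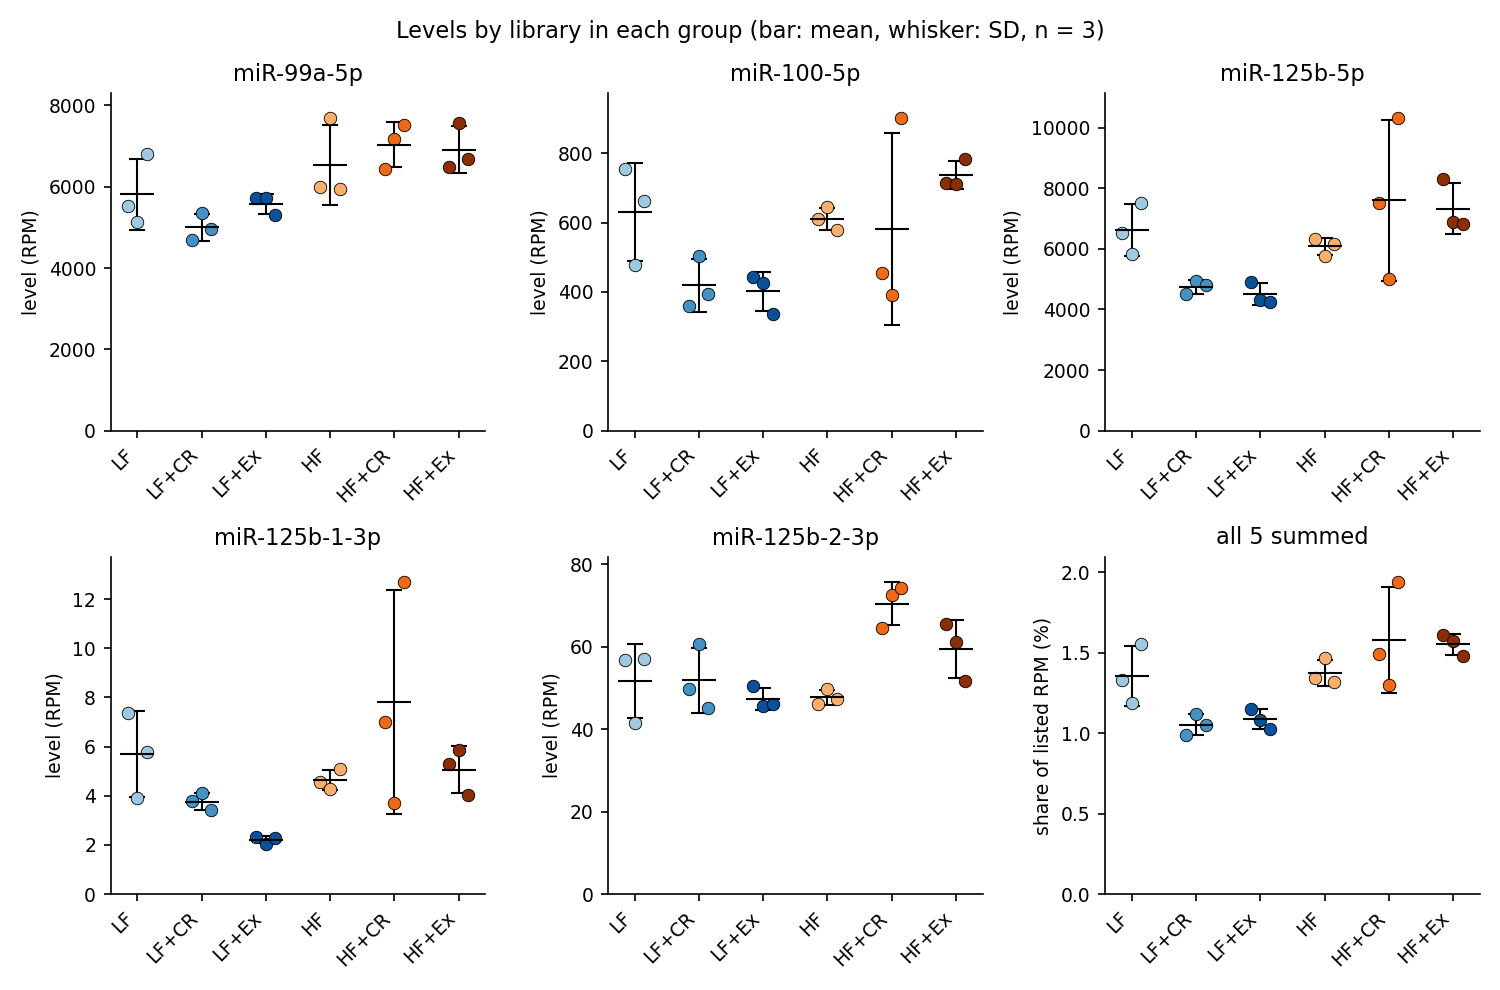
Level in RPM of each of the 5 miRNAs, and their sum as a percent of listed RPM, for the 3 libraries (points) of each of the 6 groups, with the mean (bar) and SD (whisker). All 5 miRNAs were higher in every HF+Ex library than in any LF+Ex library, and 1 HF+CR library is far above the other libraries for miR-125b-1-3p at 12.7 RPM.

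miR-99a-5p, the chromosome 16 member of the miR-99 and miR-100 family, varied least. On the LF diet it was at 5522, 5130.3 and 6800.1 RPM in LF (5817 ± 873, SD, n = 3), at 4694, 5349 and 4963 RPM in LF+CR (5002 ± 329) and at 5718, 5731 and 5302 RPM in LF+Ex (5583 ± 244). On the HF diet it was at 6005, 7679.8 and 5948 RPM in HF (6544 ± 984), at 6432, 7163 and 7509 RPM in HF+CR (7035 ± 550.1) and at 6473, 7569 and 6686 RPM in HF+Ex (6909.5 ± 581). The order of the means was LF+CR, LF+Ex, LF, HF, HF+Ex and HF+CR, with all 3 HF groups above all 3 LF groups. Each neighbouring pair in that order overlapped in its libraries; HF+CR and HF+Ex did not overlap LF+CR or LF+Ex.

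miR-100-5p, its chromosome 9 counterpart, was at 755, 477 and 662 RPM in LF (631 ± 141), at 359, 504 and 393 RPM in LF+CR (419 ± 75.9) and at 443, 425 and 337 RPM in LF+Ex (402 ± 56.8). It was at 609, 644 and 579.9 RPM in HF (611 ± 31.9), at 455, 389.9 and 900.4 RPM in HF+CR (582 ± 278) and at 715, 712 and 785 RPM in HF+Ex (737 ± 41.03). From low to high the means were in the order LF+Ex, LF+CR, HF+CR, HF, LF and HF+Ex, and every neighbouring pair overlapped. HF+CR was the widest group: its library 3, also the highest in epithelial and leukocyte miRNAs, was the highest of the 18 libraries for miR-100-5p.

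miR-125b-5p, which pools both loci, was at 6528, 5840.1 and 7525 RPM in LF (6631 ± 847), at 4497, 4930.0 and 4805 RPM in LF+CR (4744 ± 223) and at 4917, 4330.0 and 4251 RPM in LF+Ex (4499.6 ± 364). It was at 6318, 5761 and 6171 RPM in HF (6083 ± 289), at 7512, 4992 and 10313 RPM in HF+CR (7606 ± 2661) and at 8303, 6885 and 6813 RPM in HF+Ex (7334 ± 840.4). All 6 libraries of LF+CR and LF+Ex were below all 12 others, with the nearest at 4930.0 RPM in LF+CR and 4992 RPM in HF+CR. How many of all tested miRNAs share this order was not counted. The median difference from LF over all tested was -0.32 in LF+CR and -0.19 in LF+Ex. LF+Ex and LF+CR were the lowest means, followed by HF, LF, HF+Ex and HF+CR. The neighbours LF+CR and HF did not overlap, and the other neighbours did.

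The 3p arms separate the loci. miR-125b-1-3p, from chromosome 9, was at 7.39, 3.89 and 5.78 RPM in LF (5.69 ± 1.75), at 3.78, 4.10 and 3.42 RPM in LF+CR (3.76 ± 0.341) and at 2.31, 2.04 and 2.29 RPM in LF+Ex (2.21 ± 0.151). It was at 4.56, 4.28 and 5.09 RPM in HF (4.64 ± 0.409), at 7.01, 3.70 and 12.7 RPM in HF+CR (7.80 ± 4.55) and at 5.28, 5.88 and 4.02 RPM in HF+Ex (5.06 ± 0.953). LF+Ex was below every other library, an order not counted over all tested miRNAs. miR-125b-2-3p, from chromosome 16, was at 56.6, 41.4 and 57.0 RPM in LF (51.7 ± 8.88), at 49.7, 60.5 and 45.2 RPM in LF+CR (51.8 ± 7.88) and at 50.4, 45.5 and 46.1 RPM in LF+Ex (47.3 ± 2.69). It was at 46.2, 49.7 and 47.2 RPM in HF (47.7 ± 1.83), at 64.4, 72.6 and 74.2 RPM in HF+CR (70.4 ± 5.23) and at 65.4, 61.2 and 51.6 RPM in HF+Ex (59.4 ± 7.07). HF+CR had the highest mean for both arms. The means of miR-125b-2-3p in LF+Ex, HF, LF and LF+CR lay within the spread of those groups, and its HF+CR libraries overlapped only HF+Ex.

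Diet was compared first, as HF minus LF averaged over no intervention, CR and Ex, in a limma fit of log2(RPM + 1) to all 18 libraries; a miRNA was called at a Benjamini-Hochberg adjusted p under 0.05 over the 351 tested. In this average miR-99a-5p and miR-125b-5p rose on the HF diet, and the other 3 had differences in the same direction that did not pass. Without an intervention only miR-99a-5p of the 5 was higher on the HF diet, as given below. Over all tested miRNAs 18.5% were called and 16% rose. miR-99a-5p was higher by 0.32 (SE 0.078, 95% interval 0.16 to 0.49, adjusted p = 0.0132) and miR-125b-5p by 0.40 (SE 0.113, interval 0.16 to 0.64, adjusted p = 0.0253). The differences were 0.42 for miR-100-5p (adjusted p = 0.0625), 0.48 for miR-125b-1-3p (adjusted p = 0.0738) and 0.22 for miR-125b-2-3p (adjusted p = 0.1001). Their median was 0.40, beside 0.19 over all tested miRNAs. That general shift bears on the calls. Rescaling each library by its median-of-ratios size factor lowered the median diet difference over all tested by 0.19. After it, miR-99a-5p differed by 0.12 (adjusted p = 0.399) and miR-125b-5p by 0.20 (adjusted p = 0.142). All 5 differences stayed above 0 after rescaling, and none passed. miR-125b-5p was also not called without LF 2 (adjusted p = 0.0576), LF+CR 1 (0.0521) or HF+Ex 1 (0.0508), while without HF+CR 2 miR-100-5p (0.50, adjusted p = 0.0238) and miR-125b-1-3p (0.61, adjusted p = 0.0152) were called as well.

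**Figure D2:**
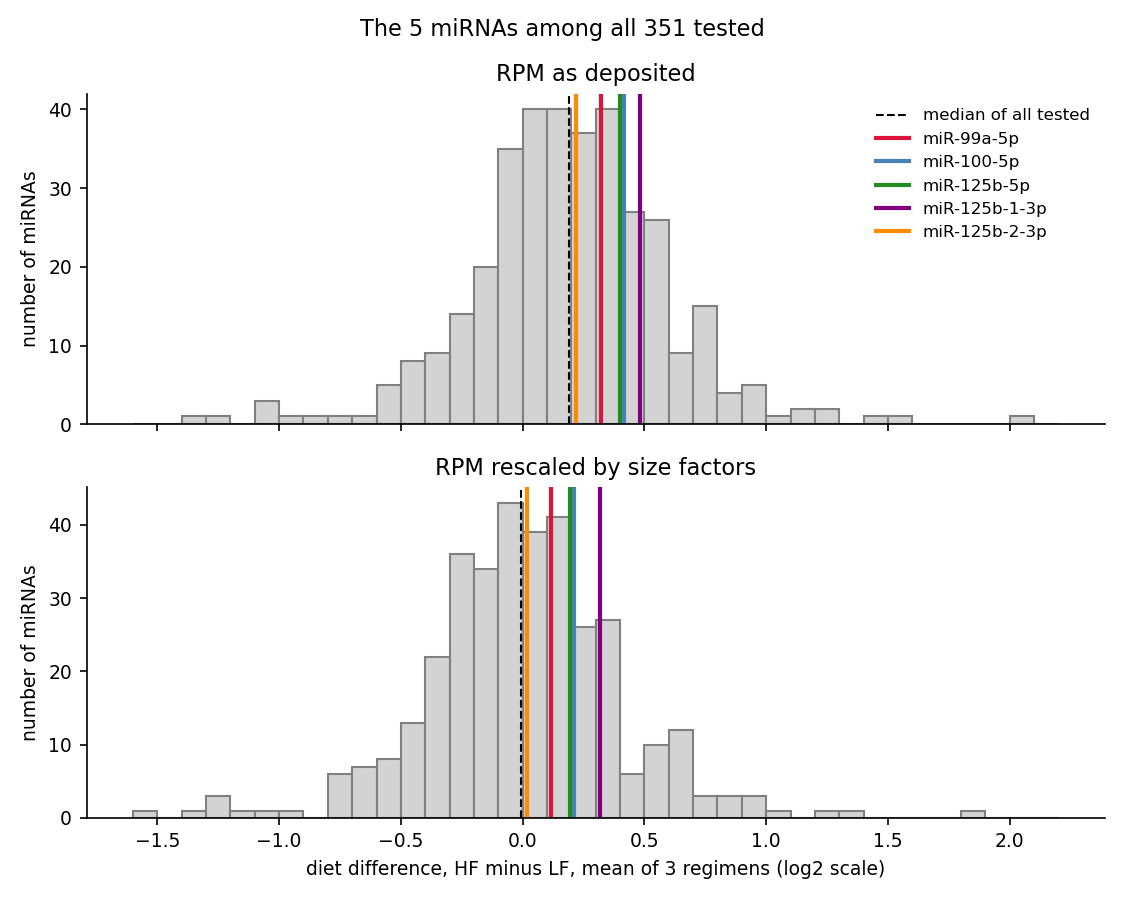
Histogram of the diet difference (HF minus LF, mean of 3 regimens, log2 scale) over the 351 tested miRNAs, for RPM as deposited and after rescaling by size factors, with the median of all (dashed line) and the 5 miRNAs (coloured lines). On deposited RPM all 5 lie above the overall median of 0.19; after rescaling they lie between 0.02 and 0.32.

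Without an intervention, the diets did not separate these miRNAs. In HF against LF none of the 5 was called by limma, none had an unadjusted p under 0.05, and 0.285% of all tested miRNAs were called. The differences ran from -0.21 for miR-125b-1-3p to 0.17 for miR-99a-5p, with a median of -0.10 beside 0.05 over all tested. Only miR-99a-5p was above 0, and miR-125b-5p, called in the average over regimens, was at -0.12. No member's groups were apart, where 19.1% of all tested miRNAs had groups of 3 that did not overlap.

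The diets were also compared within CR and within Ex, 2 comparisons added after the values were seen; whether the diet difference there differs from that without an intervention is the interaction given with CR and Ex, which passed for none of the 5. In HF+Ex against LF+Ex, miR-100-5p rose 1.83-fold in mean RPM, by 0.88 in log2(RPM + 1) (SE 0.260, adjusted p = 0.0474), and miR-125b-5p rose 1.63-fold, by 0.70 (SE 0.195, adjusted p = 0.0411). Over all tested miRNAs 8.26% were called. The other differences were 0.90 for miR-125b-1-3p (adjusted p = 0.0815), 0.31 for miR-99a-5p (adjusted p = 0.147) and 0.32 for miR-125b-2-3p (adjusted p = 0.216). All 5 miRNAs were higher in every HF+Ex library than in any LF+Ex library, as were 32.5% of all tested miRNAs. Both calls were lost when any 1 of the 6 libraries compared was left out, with differences of 0.76 to 0.96 for miR-100-5p and 0.61 to 0.77 for miR-125b-5p; calls over all 351 fell from 29 to between 2 and 16 in those fits. After rescaling, miR-100-5p stayed called at 0.66 (adjusted p = 0.0495) and miR-125b-5p was not, at 0.48 (adjusted p = 0.0620). miR-125b-1-3p was called too without LF 1 and HF+CR 3 (adjusted p = 0.0227). Neither library is in these groups, so its difference stayed at 0.90 while its SE fell from 0.325 to 0.247. The leukocyte sum was also higher in HF+Ex, at 5087 to 7089 RPM against 3002 to 4082 RPM in LF+Ex, as was the sum of the 4 endothelial miRNAs, at 21421 to 24402 RPM against 17501 to 19854 RPM. The part of these cells in the differences was not tested.

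In HF+CR against LF+CR, miR-99a-5p rose 1.41-fold in mean RPM, by 0.49 in log2(RPM + 1) (SE 0.135, adjusted p = 0.0372), and 10.5% of all tested miRNAs were called. miR-125b-5p differed by 0.62 (adjusted p = 0.0548), miR-125b-2-3p by 0.44 (adjusted p = 0.0960), miR-125b-1-3p by 0.75 (adjusted p = 0.135) and miR-100-5p by 0.39 (adjusted p = 0.294). HF+CR lay wholly above LF+CR for miR-99a-5p, miR-125b-5p and miR-125b-2-3p, as for 23.9% of all tested miRNAs. The median of the 5 was 0.49 beside 0.38 over all tested. miR-99a-5p was not called after rescaling, at 0.16 (adjusted p = 0.582), nor when any 1 of the 6 libraries was left out, at 0.44 to 0.55. Without HF+CR 2, miR-125b-5p (0.89, adjusted p = 0.00439) and miR-125b-1-3p (1.14, adjusted p = 0.0210) were called, and without HF+CR 3 these were at 0.37 for both and miR-100-5p at 0.02. Leukocyte miRNAs summed to 3500 to 8987 RPM in HF+CR and 2170 to 2970 RPM in LF+CR, and fragment-like entries to 115 to 309 RPM against 34.8 to 40.99 RPM; the part of either was not tested.

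Calorie restriction did not give a call for any of the 5. In LF+CR against LF, where limma called 6.27% of all tested miRNAs, 2 of the 5 and 101 of all 351 had an unadjusted p under 0.05, the 2 being miR-100-5p at -0.58 (unadjusted p = 0.0410, adjusted p = 0.153) and miR-125b-5p at -0.48 (unadjusted p = 0.0272, adjusted p = 0.128). miR-125b-5p was below LF in all 3 LF+CR libraries, an order shared by 24.8% of all tested miRNAs. miR-99a-5p differed by -0.21, and by 0.12 after rescaling, which raised the median over all tested in this comparison by 0.33. miR-125b-2-3p differed by 0.01 (adjusted p = 0.975), with a mean of 51.8 RPM under CR beside 51.7 RPM in LF.

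In HF+CR against HF limma called 0% of all tested miRNAs and none of the 5. Of the 5, 1 had an unadjusted p under 0.05, as had 53 of all 351: miR-125b-2-3p at 0.55 (unadjusted p = 0.00459, adjusted p = 0.140). Every HF+CR library was above every HF library for miR-125b-2-3p, as for 5.13% of all tested miRNAs. Averaged over both diets, where 6.55% of all tested miRNAs were called, CR differences were -0.38 for miR-100-5p (adjusted p = 0.208) and 0.28 for miR-125b-2-3p (adjusted p = 0.132); 1 of the 5 and 92 of all 351 had an unadjusted p under 0.05. Under rescaling miR-125b-2-3p was called, at 0.47 (adjusted p = 0.0373). Without LF 1 and HF+CR 3, miR-100-5p was called lower in CR, at -0.49 (adjusted p = 0.0312), and without HF+CR 3 alone at -0.56 (adjusted p = 0.0156). The difference in CR effect between the diets passed for none of the 5, with 0.855% called over all tested and 2 of the 5 and 48 of all 351 at an unadjusted p under 0.05. It was 0.74 for miR-125b-5p (adjusted p = 0.231), and 1.01 without HF+CR 2, where it passed (adjusted p = 0.0233).

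Exercise went with opposite orders on the 2 diets for miR-100-5p and miR-125b-5p, and limma called neither within a diet. On the LF diet both were lower in all 3 LF+Ex libraries than in any LF library, as was miR-125b-1-3p, an order that 15.1% of all tested miRNAs shared. The differences in LF+Ex against LF were -0.63 for miR-100-5p (unadjusted p = 0.0273, adjusted p = 0.331), -0.55 for miR-125b-5p (unadjusted p = 0.0121, adjusted p = 0.237) and -1.02 for miR-125b-1-3p (unadjusted p = 0.00643, adjusted p = 0.237). In mean RPM these were 0.637, 0.679 and 0.389 of LF. limma called 0% of all tested miRNAs there, with 3 of the 5 and 41 of all 351 at an unadjusted p under 0.05. miR-99a-5p differed by -0.05 and miR-125b-2-3p by -0.11, the 2 products of chromosome 16 alone; both turned above 0 after rescaling, at 0.13 and 0.07.

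On the HF diet all 3 HF+Ex libraries were above all HF libraries for miR-100-5p, miR-125b-5p and miR-125b-2-3p, as for 9.69% of all tested miRNAs. The differences in HF+Ex against HF were 0.27, 0.26 and 0.31, and 0.09 for both miR-99a-5p and miR-125b-1-3p. None of the 5 was called, none had an unadjusted p under 0.05, and 0.855% of all tested miRNAs were called. Averaged over both diets, Ex gave no call among the 5 by limma, none at an unadjusted p under 0.05, and 0% over all tested. With voom weights on the implied reads, too, none of the 5 was called in any CR or Ex comparison or in HF against LF.

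The difference in Ex effect between the diets was tested as an interaction, and none of the 5 passed, with 0.855% called over all tested. It was 0.82 for miR-125b-5p (SE 0.276, unadjusted p = 0.00936, adjusted p = 0.149), 0.91 for miR-100-5p (SE 0.368, adjusted p = 0.216), 1.12 for miR-125b-1-3p (adjusted p = 0.216), 0.42 for miR-125b-2-3p (adjusted p = 0.384) and 0.14 for miR-99a-5p (adjusted p = 0.742). An unadjusted p under 0.05 was reached by 3 of the 5 and by 58 of all 351. Fitted to the 4 groups concerned alone, miR-125b-5p passed (adjusted p = 0.0476), with 12 of all 351 called. Without LF 1 and HF+CR 3 its interaction was 0.83 (adjusted p = 0.0925). A test of any difference among the 6 groups called miR-125b-5p of the 5 (F = 4.91, adjusted p = 0.0419), where 19.9% of all tested miRNAs were called, and 14 of the 18 fits that left out 1 library called none of the 5.

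**Figure D3:**
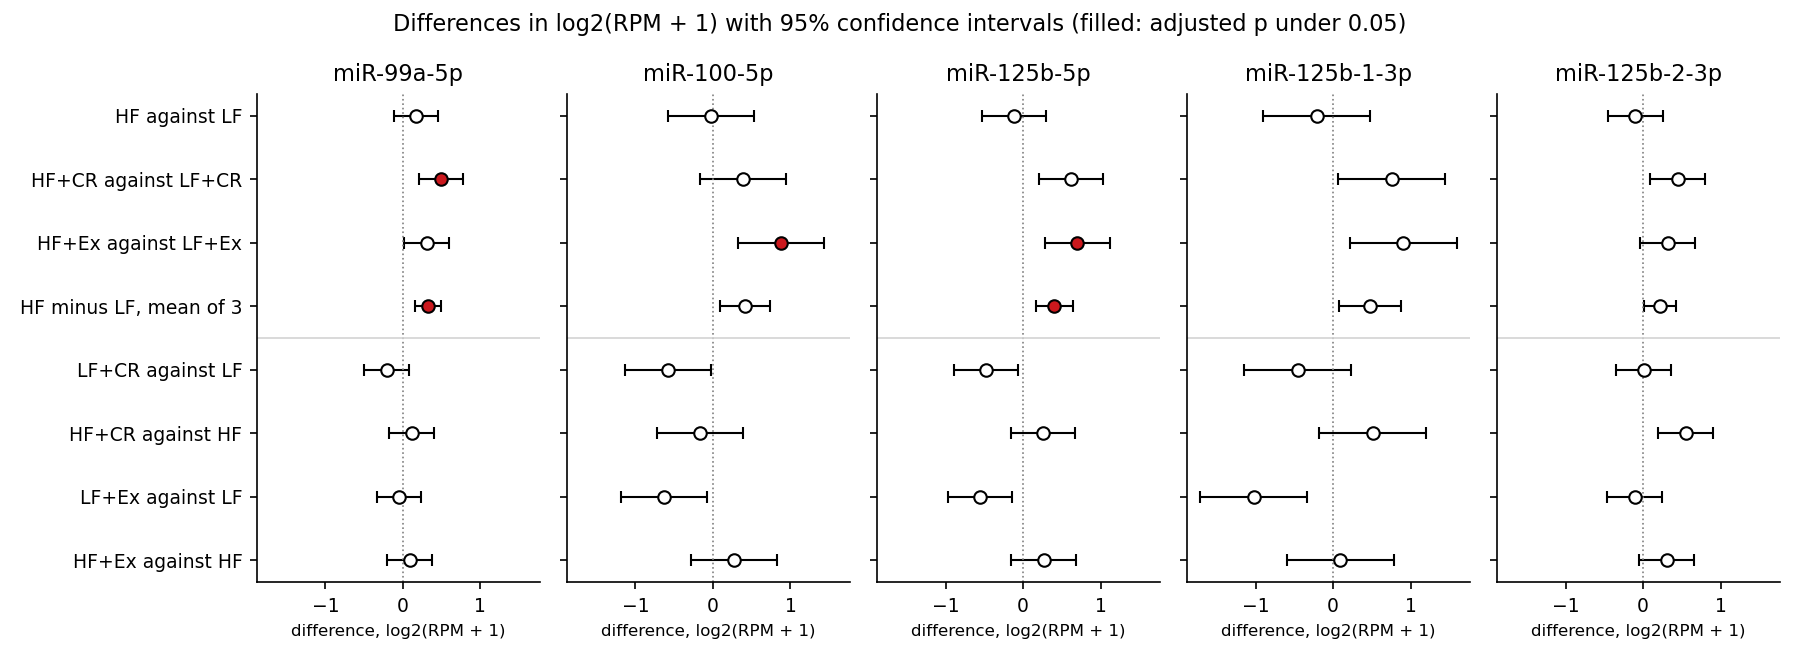
Difference in log2(RPM + 1) with its 95% confidence interval for each of the 5 miRNAs in each comparison; filled points have an adjusted p under 0.05. The filled points are miR-99a-5p and miR-125b-5p for diet averaged over 3 regimens, miR-99a-5p in HF+CR against LF+CR, and miR-100-5p and miR-125b-5p in HF+Ex against LF+Ex.

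Ratios between members within a library do not depend on its scaling, and 4 ratios were each tested for diet, CR and Ex with an exact two-sided permutation test within strata, adjusted over the 12 tests; none of the 12 passed. The ratio of miR-125b-2-3p to miR-125b-1-3p sets the chromosome 16 arm against the chromosome 9 arm. It was 7.67, 10.6 and 9.85 in LF, 13.2, 14.8 and 13.2 in LF+CR, and 21.8, 22.3 and 20.2 in LF+Ex. On the HF diet it was 10.1, 11.6 and 9.27 in HF, 9.20, 19.6 and 5.84 in HF+CR, and 12.4, 10.4 and 12.9 in HF+Ex. LF+Ex was above every other library. The log2 ratio differed by 0.70 with Ex (exact permutation p = 0.01, adjusted p = 0.12), by 1.20 on the LF diet and by 0.20 on the HF diet.

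miR-125b-2-3p made up 85.4% to 95.7% of the RPM of both 3p arms, with a median of 92.3%, so the chromosome 16 arm led in every library. Both 3p arms summed came to 0.776% to 1.53% of miR-125b-5p, with a median of 0.963%. The log2 of that ratio was 0.38 higher with CR (exact permutation p = 0.02, adjusted p = 0.12) and 0.19 higher with Ex (exact permutation p = 0.055, adjusted p = 0.22). Left out singly, HF+CR 3 moved the CR difference to 0.46 and its adjusted exact permutation p to 0.04. The level of an arm also depends on how it is kept after the hairpin is cut, so arm ratios are not a measure of how much each locus is transcribed.

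The ratio of miR-99a-5p to miR-100-5p was 7.32, 10.7 and 10.3 in LF, 13.1, 10.6 and 12.6 in LF+CR, and 12.9, 13.5 and 15.7 in LF+Ex. It was 9.86, 11.9 and 10.3 in HF, 14.1, 18.4 and 8.34 in HF+CR, and 9.05, 10.6 and 8.52 in HF+Ex. LF+Ex lay above HF+Ex, LF and HF in all of their libraries. Both extremes of the HF diet fell in HF+CR, and without HF+CR 3 the CR difference in this log2 ratio was 0.49 (adjusted exact permutation p = 0.04). The sum of miR-99a-5p and miR-100-5p was 0.815 to 1.51 times miR-125b-5p, with a median of 1.11.

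**Figure D4:**
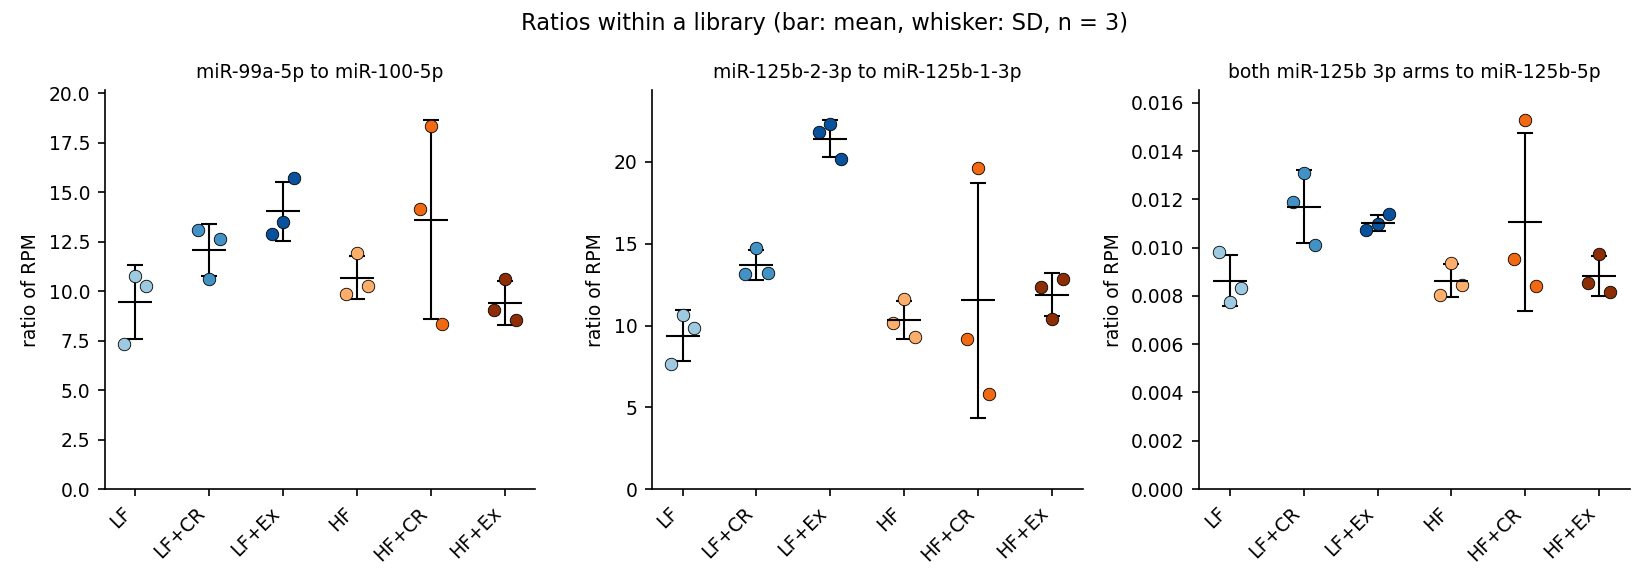
Ratio of RPM in each library (points), with the mean (bar) and SD (whisker) of the 3 libraries of each group, for miR-99a-5p to miR-100-5p, miR-125b-2-3p to miR-125b-1-3p, and both miR-125b 3p arms to miR-125b-5p. The ratio of the 2 miR-125b 3p arms is 20.2 to 22.3 in LF+Ex and lower in every other library.

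Across the 18 libraries the products of chromosome 9 and miR-125b-5p went together most closely. The 10 pairs were compared on log2(RPM + 1), with permutation p adjusted over the pairs, and 9 passed for Pearson's r. miR-125b-5p and miR-125b-1-3p had r = 0.879 and Spearman's rho = 0.884 (both adjusted permutation p = 1e-04), and r = 0.787 without the 2 libraries farthest from the median of miR-125b-5p. miR-100-5p and miR-125b-5p had r = 0.837 and rho = 0.833 (adjusted permutation p = 1e-04 and 2e-04), and r = 0.761 without 2 libraries. As deviations from the group means, pooled over the groups, these pairs still had r of 0.85 and 0.767. HF+CR spread most, with an SD of 2661 RPM for miR-125b-5p against 223 to 847 RPM in the other groups. In HF and in HF+Ex, the library highest in miR-100-5p was the lowest in miR-125b-5p, so this does not hold within every group.

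miR-99a-5p and miR-125b-5p, the latter made in part from the same chromosome 16 locus, had r = 0.624 and rho = 0.635 (adjusted permutation p = 0.0113 for r), but r = 0.168 within groups. miR-99a-5p and miR-100-5p, a single base apart, had r = 0.623 and rho = 0.585. The pair that did not pass was miR-100-5p and miR-125b-2-3p (r = 0.384, rho = 0.463, adjusted permutation p = 0.118). All values of a library share its depth and scaling.

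**Figure D5:**
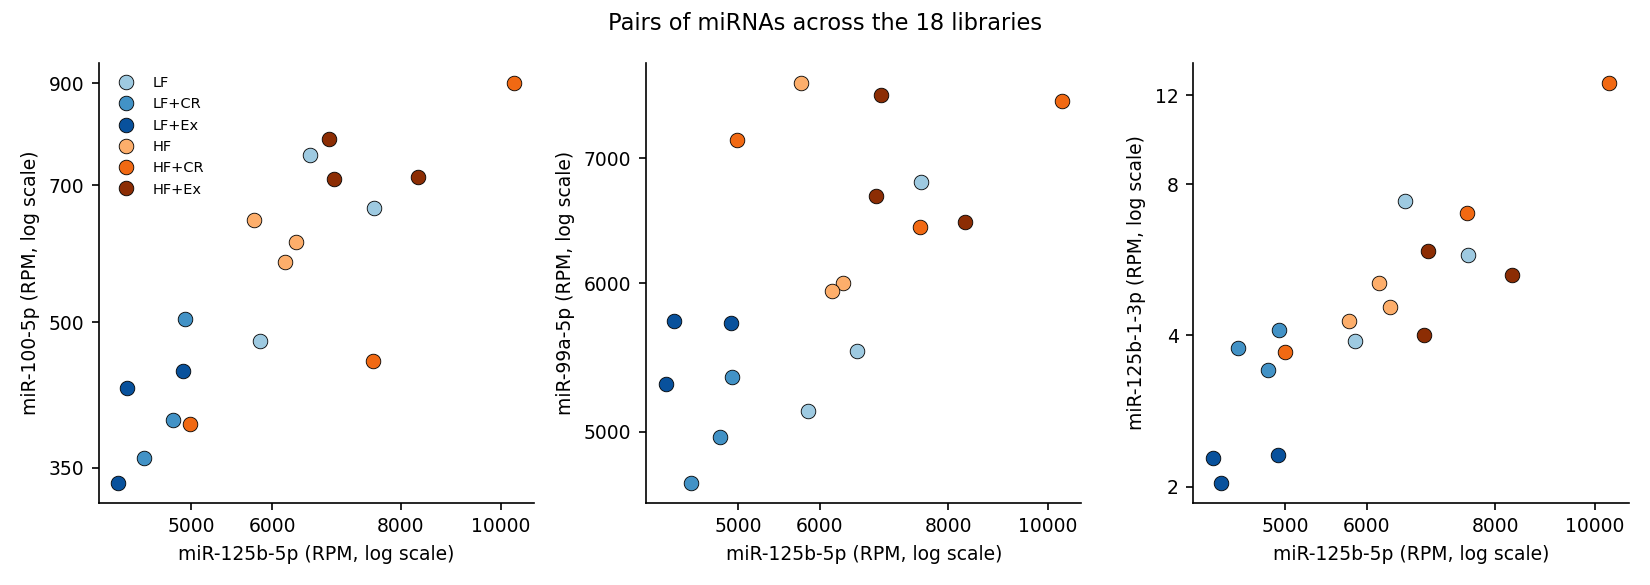
Levels of pairs of miRNAs in RPM on log axes, 1 point per library, coloured by group. The pair of miR-125b-5p and miR-125b-1-3p has r = 0.879 over 18 libraries, with LF+Ex at the low end and HF+CR 3 at the high end.

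Other products of the same loci and their relatives were counted as a list of 15, of which 12 were tested. In the averaged diet comparison 2 rose and none fell, with a median of -0.19 beside 0.19 over all tested. let-7c-5p, encoded next to miR-99a and at a further locus on chromosome 15, rose by 0.49 (adjusted p = 0.00917), from a mean level of 20956 RPM over all libraries. miR-10a-5p, whose sequence is close to that of the miR-99 family but shifted in its seed, rose by 0.39 (adjusted p = 0.0361). After rescaling these differences were 0.28 and 0.18. miR-99a-3p differed by 0.30 (adjusted p = 0.0706) and let-7a-5p by 0.19 (adjusted p = 0.0929).

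The relatives with the same seeds from the locus of miR-99b and miR-125a had differences below 0. miR-99b-5p, which shares ACCCGUA with miR-99a-5p and miR-100-5p, differed by -0.15 (adjusted p = 0.597), and miR-125a-5p, which shares CCCUGAG with miR-125b-5p, by -0.56 (adjusted p = 0.0791). let-7e-5p of the same locus differed by -0.50 (adjusted p = 0.0706). Whether these differ from the members was not tested. Their sequences are shown beside let-7c-5p and miR-10a-5p, with seeds in capitals.
miR-99b-5p: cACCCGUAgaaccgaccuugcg
miR-125a-5p: uCCCUGAGacccuuuaaccuguga
let-7c-5p: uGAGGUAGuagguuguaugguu
miR-10a-5p: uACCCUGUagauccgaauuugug

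In HF+Ex against LF+Ex 3 of the 12 rose and none fell: let-7c-5p by 0.82 and let-7a-5p by 0.65 (both adjusted p = 0.0127), and miR-10a-5p by 0.73 (adjusted p = 0.0411). In HF+CR against LF+CR 2 rose, let-7c-5p by 0.55 (adjusted p = 0.0497) and miR-99a-3p by 0.75 (adjusted p = 0.0372). In LF+CR against LF let-7c-5p fell by 0.65 (adjusted p = 0.0314).

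The miRNAs whose levels were most like each member's over the 18 libraries were named by Pearson's r of log2(RPM + 1), as a description. For miR-100-5p they were miR-501-3p (r = 0.932), miR-10a-5p (0.925) and miR-598-3p (0.890). For miR-125b-5p they were miR-1198-5p (0.874), let-7c-5p (0.841) and miR-598-3p (0.823). For miR-125b-1-3p they were miR-199b-5p (0.852), let-7i-5p (0.833) and miR-181d-5p (0.820). miR-99a-5p was nearest to miR-671-3p (0.797), miR-425-5p (0.774) and miR-501-5p (0.765), and miR-125b-2-3p to miR-28a-5p (0.700), miR-690 (0.617) and miR-17-3p (0.562). The nearest miRNA to miR-125b-2-3p was less like it than the 3 nearest to each other member. miR-690 is among the entries counted here as fragment-like.

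In the averaged diet comparison, 5 of the 6 leukocyte miRNAs rose, with a median difference of 0.95. Of the 5 stellate and mural miRNAs 1 rose, miR-214-3p by 0.94 (adjusted p = 0.0411), with 3 of the 5 above 0 and a median of 0.46. The others, miR-143-3p and miR-145a-5p, differed by -0.13 and -0.01. Their mean levels were 7008 and 1293 RPM, beside 18.3 RPM for miR-214-3p. Of the 4 endothelial miRNAs 1 rose, miR-126-3p by 0.36 (adjusted p = 0.0170), with all 4 above 0 and a median of 0.32. Of the fragment-like entries 3 were tested and none was called, with all 3 above 0 and a median of 0.78. None of the hepatocyte miRNAs was called, with differences from -0.13 to -0.06. Summed stellate and mural miRNAs were at 7048 to 9451 RPM in LF+Ex and 8591 to 10559 RPM in HF+Ex, which overlap. Without LF 1 and HF+CR 3, miR-100-5p joined the 2 members called for diet, at 0.34 (adjusted p = 0.0374). The part of these cell types and of RNA quality in the members' differences was not tested.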

How the data were processed

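Small RNA was sequenced from 18 mouse liver libraries, 3 per group, made from 10 µg of Trizol-extracted RNA enriched for small RNA, per the labels' protocols. The authors deposited 1 table per library of mature miRNAs in RPM; the submitters' processing notes name mm10 as the build. No source used here names the aligner, the counting rule or the miRNA release. RPM values came in steps of 1 implied read, 100% whole within 0.001 of a read, with a lowest listed value of 2 reads, giving 2379753 to 10481218 implied reads per library. Listed RPM summed to 96.4% to 97.1% of the scaled total.

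The 351 of 758 miRNAs that reached 5 RPM in 3 or more of the 18 libraries were fitted as log2(RPM + 1) with limma 3.58.1 in R 4.3.3, with 1 coefficient per group, a mean-variance trend and Benjamini-Hochberg adjustment. A fold on this scale understates changes of low miRNAs. Ratios were compared with exact permutation tests (smallest p 0.00025 or 0.005) in Python 3.11.15. Pairs were compared with 100000 resamples (smallest p 1e-05) in R. In simulated HF against LF data for 351 miRNAs, 16 of 25 changes of log2 size 1 and 21 of 25 of size 2 were called, with 1 false call among 301. Named miRNAs are the members, their cluster mates and relatives, and the 3 most alike to each member. The members and lists were chosen with earlier results of these data known. Alternatives changed the pseudocount, filter, scaling, libraries, block and trend. Sequences come from RefSeq (GRCm38.p6), positions of host genes from GENCODE M21, and the end of Mir99ahg also from RefSeq.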

Additional observations from a re-analysis of the deposited data

Results flagged for a closer look

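The difference in Ex effect between the HF and LF diets was 0.91 in log2(RPM + 1) for miR-100-5p and 0.82 for miR-125b-5p. Both were flagged because all 3 LF+Ex libraries were below all LF libraries while all 3 HF+Ex libraries were above all HF libraries. Of all tested miRNAs, 15.1% had the first order and 9.69% the second. The share of all tested miRNAs with both orders was not counted. The interaction did not pass for either (limma, adjusted p = 0.216 and 0.149). After rescaling by size factors the differences were 0.74 (adjusted p = 0.153) and 0.65 (adjusted p = 0.133). Without LF 1 and HF+CR 3 they were 0.76 (adjusted p = 0.142) and 0.83 (adjusted p = 0.0925).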

How the results depend on the processing

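Of 1243 member values recomputed under an alternative, 1149 kept their direction and side of the threshold, 41 lost a call, 19 gained one, 34 stayed uncalled but changed sign, and none reversed. Counts of the 5 members called are given next, and the cause of each change was not tested. Under rescaling, diet gave 0 calls, CR averaged over both diets 1, HF+CR against LF+CR 0, HF+Ex against LF+Ex 1 and the test among 6 groups 0. Over all 351 these gave 49, 8, 25, 34 and 55 calls, beside 65, 23, 37, 29 and 70 before rescaling. With no filter, which tests 758 miRNAs, HF+CR against LF+CR, HF+Ex against LF+Ex and the test among 6 groups gave 0. With no trend those same 3 gave 0. Calls over all tested were 13, 18 and 41 of 758 with no filter, and 29, 28 and 61 of 351 with no trend. A filter of 50 RPM gave 2 for HF+CR against LF+CR, where 32 of the 200 tested were called, and 3 for diet. With only the compared groups fitted, the Ex interaction gave 1, HF+CR against LF+CR 0 and HF+Ex against LF+Ex 3. Calls over all 351 went from 3 to 12 for that interaction and from 37 to 4 for HF+CR against LF+CR. Without LF 1 and HF+CR 3, CR averaged over diets gave 1, HF+CR against LF+CR 0, the test among 6 groups 2, and diet and HF+Ex against LF+Ex 3 each. The first 3 of these gave 63, 34 and 128 calls over all 351. Without LF+CR 1 and HF+CR 1, diet gave 1 and HF+CR against LF+CR, HF+Ex against LF+Ex and the test among 6 groups 0. Over all 351 that fit gave 24, 4, 19 and 8 calls in the same order. Neither pair holds a library of HF+Ex or LF+Ex, so in that comparison only the estimate of spread changed. Leaving out the 3 shallowest libraries leaves HF+CR with 1 library, HF+CR 2, high in neuronal miRNAs and assumed to vary like the other groups. The diet difference was then 0.35 for miR-99a-5p and 0.19 for miR-125b-5p. That fit says little on stability, and its calls are not listed here. These library sets and voom weights were chosen after seeing the data, and voom changed no count. Leaving out 1 library gave 1 to 4 calls for diet, where miR-99a-5p was called in 18 of 18 fits and miR-125b-5p was lost without LF 2 (adjusted p = 0.0576), LF+CR 1 (0.0521) or HF+Ex 1 (0.0508). The range was 0 to 1 for CR averaged over diets and for the CR interaction, the latter without HF+CR 2, 0 to 3 for the test among 6 groups, 0 to 2 for HF+CR against LF+CR, 0 for HF+Ex against LF+Ex and 0 for the other comparisons. Over all 351 these fits gave 37 to 91 calls for diet, 0 to 78 for CR averaged over diets and 1 to 9 for the CR interaction. They gave 15 to 118 for the test among 6 groups, 3 to 51 for HF+CR against LF+CR and 2 to 16 for HF+Ex against LF+Ex. Among ratios, only leaving out HF+CR 3 gave passing tests, for CR: miR-99a-5p to miR-100-5p at 0.49 and both 3p arms to miR-125b-5p at 0.46, each at an adjusted exact permutation p of 0.04. Leaving out HF+CR 2 gave the lowest values of these, 0.20 and 0.25.

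Same-numbered libraries did not vary together, with correlations of -0.198 to 0.248 over the comparisons and no comparison with all 3 above 0.1, so the numbers are not taken as pairs. With a replicate block, HF+CR against LF+CR gave 2 calls (48 over all 351) and HF+Ex against LF+Ex 1 (36 over all 351), and diet stayed at 2. Other count-based tests were planned and not run, since a check of units did not accept the implied reads as counts. The implied reads were fitted only with voom weights. The 13 to 57 implied reads of miR-125b-1-3p per library limit its precision.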
